A study of Rattus norvegicus with 11 samples.

Results

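The cytosolic ribosomal protein genes are the genes for the proteins of the ribosome that works outside the mitochondria. They were taken as the rows of the count and FPKM tables with a symbol made of Rpl or Rps, a number and an optional suffix, which gave 91 of 24481 genes. Of these, 53 belong to the large subunit and 38 to the small subunit. In 69 genes the symbol is the plain name of a ribosomal protein, and 22 carry a copy suffix, such as Rps10l1 or Rpl3l. The copy-suffix genes hold paralogs with a name of their own as well as rows that the annotation lists as further copies.

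RNA was prepared from the ileum of SD rats aged 6 to 8 weeks, and reads were counted per gene in 11 libraries. Severe acute pancreatitis (SAP) was induced with 3% sodium taurocholate, injected into the pancreatic duct. Rats were allocated 24 h after surgery and killed after a further 24 h. The control group (3 libraries) and the SAP group (4 libraries) received vehicle, and the JZL184 group (4 libraries) had SAP and received JZL184 at 10 mg/kg into the peritoneal cavity. JZL184 inhibits monoacylglycerol lipase (MAGL), the enzyme that breaks down the endocannabinoid 2-AG. The labels name a control plasmid for the control rats and oil in the titles of the SAP rats where the study's methods name vehicle, and whether control rats had surgery is not stated in the labels.

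Each cytosolic ribosome consists of a small subunit, which reads the mRNA, and a large subunit, which joins the amino acids, and every growing or secreting cell needs its proteins in equal numbers. In the intestine, where the epithelium is renewed without pause, ribosomal protein mRNAs are among the most abundant of all. Many of these mRNAs begin with a C followed by an unbroken run of pyrimidines (C or T in the gene), the terminal oligopyrimidine (TOP) motif. The kinase mTOR and the RNA-binding protein Larp1 act on this motif and set how far these mRNAs are translated and kept stable. The amount of mRNA therefore does not give the amount of protein made, and protein was not measured in these libraries.

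The first bases of the genes are shown because the genes moved together between libraries and the TOP motif is the feature for which the family is known. Start windows were taken from RefSeq on the GRCr8 build, matched by symbol and chromosome for 65 of the 91 genes. Each runs 5′ to 3′ from 30 bases before the annotated start to 30 bases from it onward. Capitals mark the longest run of 5 or more C or T that touches the 10 bases on either side of the start, and a window without capitals has no such run. The members with the largest differences between JZL184 and the other groups were as follows.
Rpl17 (chr18:70856246-70856305, plus strand): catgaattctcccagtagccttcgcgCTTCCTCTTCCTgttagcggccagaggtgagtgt
Rps28 (chr7:15311304-15311363, minus strand): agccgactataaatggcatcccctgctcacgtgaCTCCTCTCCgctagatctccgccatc
Rpl5 (chr14:1995196-1995255, minus strand): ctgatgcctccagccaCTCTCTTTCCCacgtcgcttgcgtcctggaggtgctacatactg
Rps12 (chr1:23500045-23500104, plus strand): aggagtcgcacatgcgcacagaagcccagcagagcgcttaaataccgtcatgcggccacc
Rpl17 has its run across the annotated start, in Rpl5 the run ends before it and in Rps28 it begins after it. Rps12 has none in this window. A further set of 5 members gave these windows.
Rpl26 (chr10:54109662-54109721, plus strand): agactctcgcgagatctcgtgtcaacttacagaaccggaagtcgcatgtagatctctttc
Rpl19 (chr10:83519034-83519093, plus strand): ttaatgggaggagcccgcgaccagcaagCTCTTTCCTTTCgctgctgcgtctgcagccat
Rps14 (chr18:56498230-56498289, plus strand): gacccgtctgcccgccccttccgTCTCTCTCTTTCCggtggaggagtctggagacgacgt
Rps27 (chr2:177964577-177964636, minus strand): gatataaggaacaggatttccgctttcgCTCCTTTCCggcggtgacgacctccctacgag
Rpl22 (chr5:168117931-168117990, plus strand): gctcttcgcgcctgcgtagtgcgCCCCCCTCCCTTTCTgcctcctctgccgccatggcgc
Rpl19, Rps14, Rps27 and Rpl22 have a run across the start, and Rpl26, the member with the highest level, has none. The paralogs with a window and the pair Rps4x and Rps4y2 gave these.
Rps27l (chr8:76443628-76443687, plus strand): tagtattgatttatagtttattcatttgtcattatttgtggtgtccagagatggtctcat
Rpl22l1 (chr2:113683166-113683225, plus strand): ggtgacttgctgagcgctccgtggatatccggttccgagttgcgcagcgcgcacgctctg
Rpl7l1 (chr9:21695688-21695747, plus strand): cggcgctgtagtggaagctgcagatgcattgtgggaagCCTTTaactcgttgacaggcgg
Rps4x (chrX:71342892-71342951, minus strand): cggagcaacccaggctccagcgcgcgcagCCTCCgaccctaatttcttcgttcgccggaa
Rps4y2 (chr4:183000883-183000942, plus strand): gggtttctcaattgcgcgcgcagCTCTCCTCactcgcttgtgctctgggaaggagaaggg
Rps27l and Rpl22l1 have no run, Rpl7l1 has a short one after the start, and Rps4x and Rps4y2 have one across it. Rpl26 is shown for its level, Rps27 and Rpl22 for their paralogs, and Rps14 and Rpl19 were chosen for this display after their windows were seen.

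A C followed by at least 4 letters C or T, beginning at the annotated start on the transcribed strand, was found in 19 of 54 windows of genes without a copy suffix (35.2%). It was found in 0 of 12 windows of copy-suffix genes (0%) and in 881 of all 33469 promoters of the table (2.63%). With the C anywhere from 5 bases before to 10 bases after the start, the counts were 35 of 54 (64.8%), 4 of 12 (33.3%) and 7262 of 33469 (21.7%). The letters CTTTC within 10 bases of the start were found on the transcribed strand in 17 of 54 windows (31.5%) and in 2.22% of all promoters. On the other strand they were found in 1 of 54 windows (1.85%) and in 2.39% of all promoters. Both motifs overlap in many windows, and 1 gene, Rps27a, has 2 windows. Genes of the mitochondrial ribosome, which is built from other proteins, had the C with its pyrimidines at the start in 2 of 62 windows (3.23%). These are counts of letters, and annotated starts can lie some bases away from the start used in the ileum.

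The libraries held between 26341299 and 33847135 reads on genes, so the spread between rats and not counting error set the precision. The counts of the first pair of control libraries, 1 and 2, were almost as close as sampling noise allows, with a chi-square per gene of 2.81 where other pairs within a group gave 77.5 to 563. Both were therefore summed and counted as 1 sample, which left 2 control samples. SAP libraries 1 and 2 stood apart from SAP libraries 3 and 4, with chi-square values of 337 to 563 across this divide and 85.5 and 99.1 within its sides. SAP library 2 had 20 reads on 3 genes of the Y chromosome (Uty, Kdm5d, Eif2s3y), where the other libraries had 1222 to 4665, although the study's methods name male rats. The labels call the cells intestinal epithelial cells, and all 10 enterocyte markers were found, but their summed FPKM was 44254 to 45283 in control samples, 12012 to 27416 in SAP and 6364 to 22956 in JZL184. Smooth muscle markers reached 367 to 2115 FPKM and neutrophil markers 1.14 to 246 FPKM over all samples, so the samples held more than epithelium. Genes encoded in mitochondrial DNA took 2.75% to 3.34% of reads in control libraries, 2.90% to 6.17% in SAP and 3.52% to 6.92% in JZL184. The part of cell composition and of these reads in the results was not tested. Fewer cells of a type and less RNA per cell cannot be told apart in such samples. Nothing in the labels links same-numbered rats of different groups. P-values set the group differences against the spread between these samples, of which control has only 2.

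The ribosomal protein genes took 3.80% to 12.6% of all reads on genes, a share that was highest in the JZL184 group and most uneven in the SAP group. In control libraries 1, 2 and 3 the share was 6.86%, 6.96% and 7.33%. In SAP libraries 1 to 4 it was 3.80%, 3.85%, 7.11% and 9.82%. In JZL184 libraries 1 to 4 it was 8.27%, 12.6%, 11.1% and 10.0%. Every JZL184 library was above every control library, whereas SAP overlapped both groups, with 2 libraries below all controls, 1 beside them and 1 above them. Control had a mean of 7.12% ± 0.293 (SD, n = 2). The mean was 6.14% ± 2.90 in SAP and 10.5% ± 1.83 in JZL184 (SD, n = 4 each). The share is a sum over genes picked by name, and no test was made of it.

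**Figure D1:**
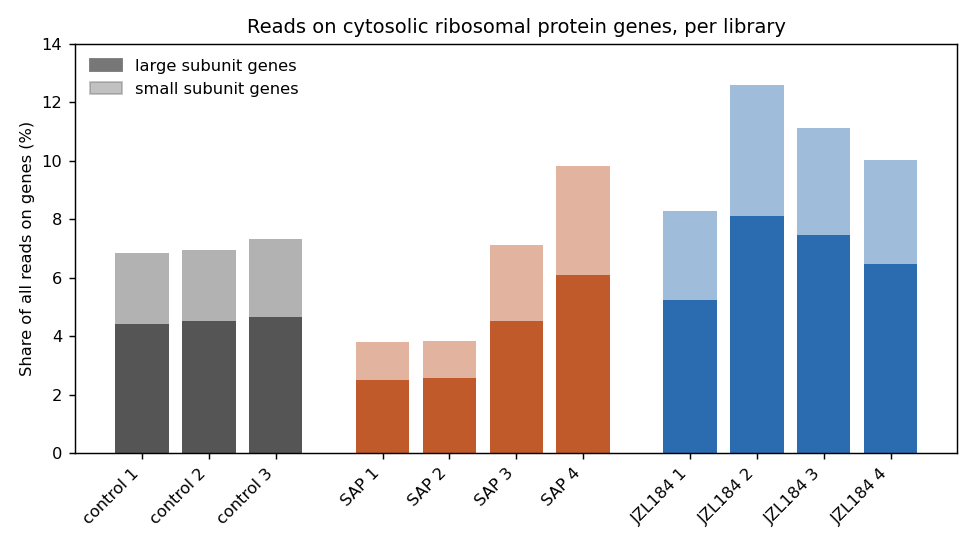
Share of all reads on genes (%) that fell on cytosolic ribosomal protein genes in each of the 11 libraries. Dark parts of the bars are large subunit genes and pale parts small subunit genes. SAP libraries 1 and 2 are lowest at 3.80% and 3.85%, and JZL184 library 2 is highest at 12.6%.

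Both subunits contributed to this pattern. The large subunit genes took 2.497% of reads in SAP library 1, the lowest value, and 8.12% in JZL184 library 2, the highest. The small subunit genes took between 1.27% (SAP library 2) and 4.49% (JZL184 library 2). The ratio of large to small was 1.79 ± 0.0434 in control (SD, n = 2), and for 4 samples each it was 1.84 ± 0.175 in SAP and 1.84 ± 0.132 in JZL184. Per library the ratio was 1.92, 2.03, 1.76 and 1.63 in SAP libraries 1 to 4, and it reached 2.03 in JZL184 library 3. Copy-suffix genes together took 0.0975% to 0.321% of reads. A further 317 rows described as ribosomal proteins but with other symbols took 0.118% to 0.514% of reads. The authors counted uniquely aligned reads, and reads that match a gene and one of its copies equally well are missing from both.

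The mitochondrial ribosomal protein genes had their highest mean in control, with 0.494% ± 0.0152 of reads there (SD, n = 2), 0.396% ± 0.0873 in SAP and 0.404% ± 0.0368 in JZL184 (SD, n = 4 each). Nuclear genes for subunits of oxidative phosphorylation took 2.39% ± 0.0303 of reads in control, 1.72% ± 0.461 in SAP and 1.89% ± 0.201 in JZL184.

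Levels of single genes are given as FPKM, which divides by gene length and library size. Among the 69 genes without a copy suffix, the mean over samples ranged from 96.7 FPKM (Rps28) to 5241 FPKM (Rpl26) with a median of 1203 FPKM. In 62 of them every library was above 100 FPKM. The levels per length thus spanned a 54.2-fold range, and the part of unique alignment in this range was not tested. Rpl36, Rpl5 and Rps6 were also among the 5 members with the highest levels. Of the copy-suffix genes, 9 of 22 had a mean under 1 FPKM, but Rps9l1 reached 1183 FPKM and Rps19l2 533 FPKM. No member is named Rps9, Rps19, Rpl35a or Rpl37a, so the 69 plain names do not cover every ribosomal protein.

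Most genes had their lowest and highest values in the same few libraries. The lowest FPKM was found in SAP library 1 for 38 and in SAP library 2 for 30 of the 69 genes without a copy suffix. The highest was found in JZL184 library 2 for 52 genes, in JZL184 library 3 for 9 and in SAP library 4 for 5. The highest library exceeded the lowest by a median of 3.75-fold, from 1.62-fold for Rpl7 to 6.95-fold for Rpl36. Rps6, the subunit protein that the mTOR-dependent kinase Rps6kb1 phosphorylates, can serve as an example. Its FPKM was 2956, 2980 and 3124 in control libraries, 1678, 1767, 3137 and 4620 in SAP libraries, and 3810, 5624, 4513 and 4660 in JZL184 libraries.

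**Figure D2:**
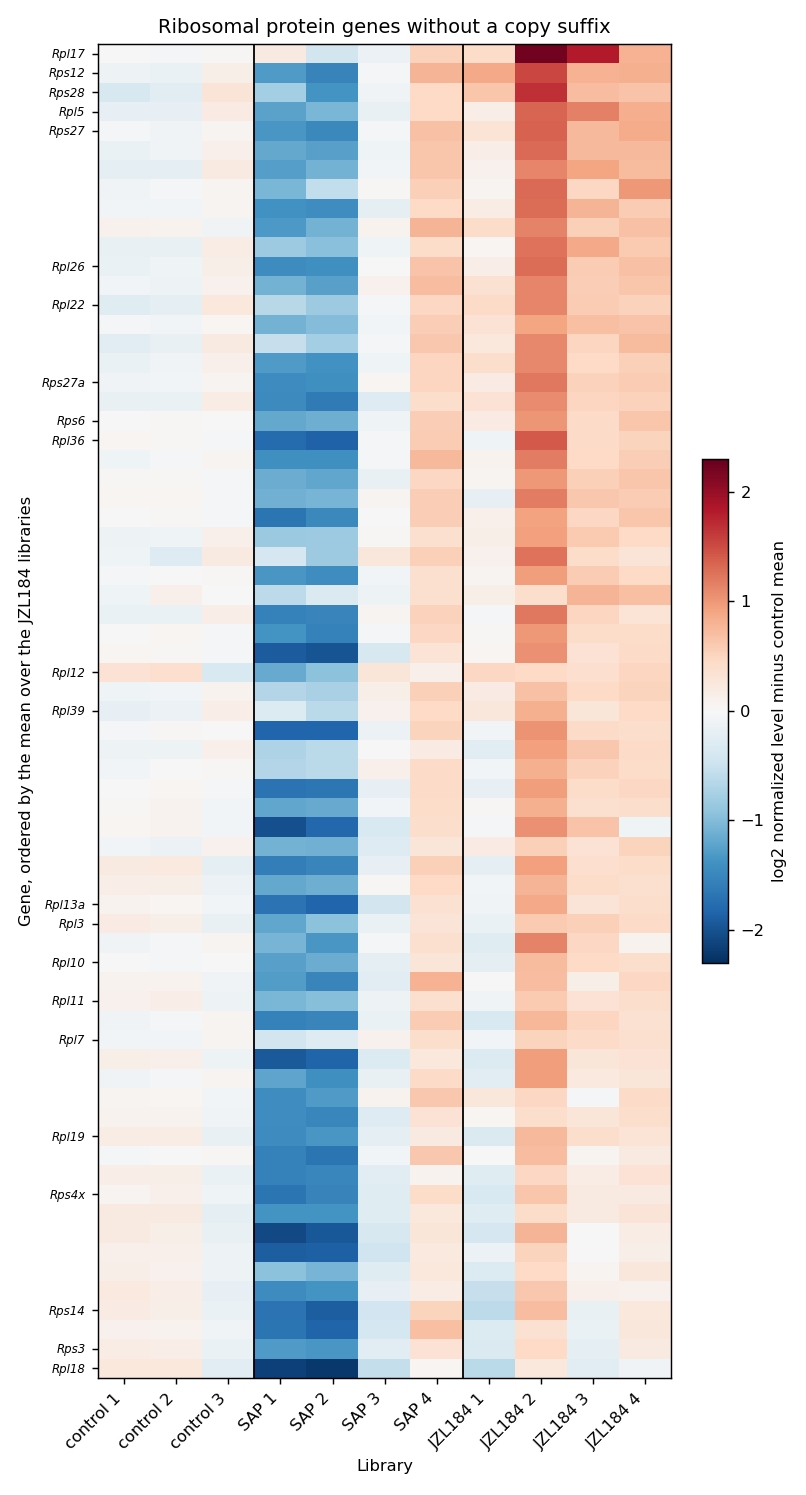
Normalized level of the 69 ribosomal protein genes without a copy suffix (rows, some with their symbols) in each library (columns), as the log2 difference from the mean of the control samples, red above and blue below. The columns of SAP libraries 1 and 2 are blue in almost every row, JZL184 library 2 is red in all rows, and Rpl17 in the top row departs from the other genes.

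Counts were next compared between groups with edgeR's quasi-likelihood test over all genes with enough reads, of which 84 to 87 were members. Genes that differed by more than 2-fold were called when the p-value, adjusted over all genes with the Benjamini-Hochberg method, was under 0.05. Levels per library relative to control show what entered these comparisons. The median over the 69 genes was -1.30 and -1.37 (log2) in SAP libraries 1 and 2, -0.10 in SAP library 3 and 0.46 in SAP library 4. In JZL184 libraries 1 to 4 it was 0.03, 0.94, 0.45 and 0.45. In SAP library 2, 0 of the 69 genes were above the control mean, and in JZL184 library 2 and SAP library 4 all 69 were.

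Between SAP and control, no ribosomal protein gene was called. In detail, 0 of 84 members passed, as did 0 of all 16029 genes tested (0%), and the smallest adjusted p among members was 0.465. No member had an unadjusted p below 0.05, a level that 5.69% of all genes reached with higher and 3.4% with lower values in SAP. The log2 fold change had a median of -0.32 over the members and 0.06 over all genes tested. It was above 0 in 6 of 84 members and in 53.2% of all genes. The groups did not overlap for 1 member in each direction, Rps27l above and Rps4y2 below control, where 10.1% and 13% of all genes were separated in these directions. For Rps4y2 this holds with control libraries 1 and 2 summed, and in FPKM SAP library 3 (20.37) was above every control library (17.57 to 19.51). DESeq2 called 0 members and 1.23% of all genes, and limma-voom called 0 members and 0.0873% of all genes.

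The median between SAP and control turned with the choice of SAP libraries and with gene length. Without SAP libraries 1 and 2 it was 0.22, 0 of 84 members were called and 0.482% of all genes were. Without SAP libraries 3 and 4 it was -1.30, and 61 of 84 members were called lower in SAP where 16.9% of all genes were called lower. The split was made along the divide seen in these same counts, and left 2 SAP samples beside 2 control samples. SAP libraries 1 and 2 were also those with the lowest shares of reads on the family. The 61 calls thus describe these libraries and are no test of SAP. When the dependence of each library on gene length was taken out with offsets, the median over all 4 libraries was 0.05 and 51 of 84 members were above 0.

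The members with the smallest log2 fold changes between SAP and control were 2 copy-suffix genes and Rpl18, all of which followed the divide between the SAP libraries. Rps10l1 had 263, 213 and 145 FPKM in control libraries and 40.01, 30.04, 117 and 220 FPKM in SAP libraries, and its log2 fold change was -1.02 (SE 0.80, adjusted p = 0.529 with edgeR). Rps9l1 had a log2 fold change of -0.92 (SE 0.56) and Rpl18, a protein of the large subunit, of -0.90 (SE 0.63). Rpl18 was measured at 1993, 2000 and 1544 FPKM in control, and at 491, 475, 1315 and 1841 FPKM in SAP. For both genes SAP libraries 1 and 2 were below every control library, and SAP library 4 was within the control range. At the other end stood Rps27l (0.47, SE 0.29), Rpl10l (0.45, SE 0.89) and Rpl17 (0.12, SE 0.35), none of which passed.

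**Figure D3:**
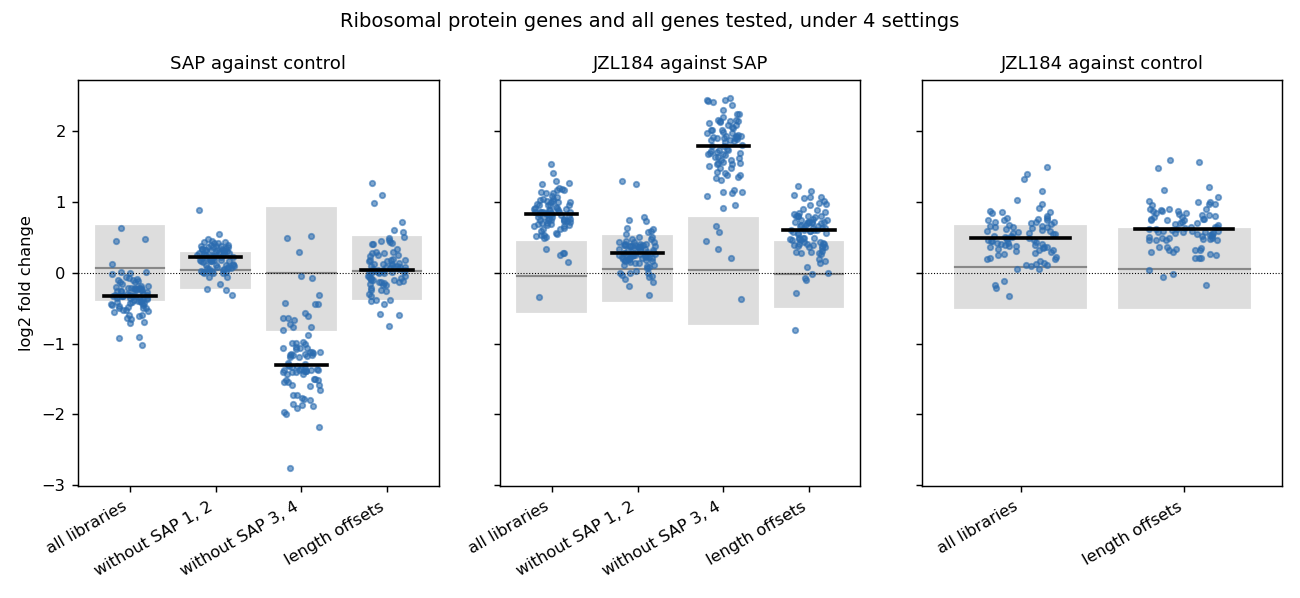
Log2 fold changes of ribosomal protein genes (blue points, black line at the median) in the 3 comparisons, with all libraries, without SAP libraries 1 and 2, without SAP libraries 3 and 4, and with gene length offsets. Grey boxes span the interquartile range of all genes tested with a line at their median, and JZL184 against control has no settings without SAP libraries. Between SAP and control the median of the points lies at -0.32, 0.22, -1.30 and 0.05 in these settings, and between JZL184 and SAP it stays above 0.

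Between JZL184 and SAP, nearly all ribosomal protein genes had higher values in JZL184, by a median of 0.83 on the log2 scale, but none was called. The log2 fold change was above 0 in 86 of 87 members and in 47.4% of all genes, whose median was -0.05. At an unadjusted p below 0.05, 20 of 87 members were higher and 0 lower, against 10.3% and 11.1% of all genes. After adjustment 0 of 87 members and 0 of 15308 genes (0%) were called with edgeR, and the smallest adjusted p among members was 0.109. In normalized counts, all 4 JZL184 libraries were above all 4 SAP libraries for 4 members, Rps12, Rps28, Rpl12 and the low copy Rps12l3, and below them for 0. Rpl12 and Rps12l3 are named because of this separation. In FPKM, Rpl12 overlapped, with 1549 in SAP library 3 and 1464 in JZL184 library 2. Rps12 was nearly level in FPKM in SAP library 4 (1492.01) and JZL184 library 4 (1492.33). Of all genes tested, 6.32% were separated upward and 5.41% downward, so 4 of 87 is close to the general share. DESeq2 called 2 members, Rpl17 and Rps12l3, and 6.98% of all genes. With limma-voom and sample weights 0 members and 4.57% of all genes were called, and 61 members and 13.1% of all genes were higher at an unadjusted p below 0.05.

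The size of this difference also depended on the SAP libraries. Without SAP libraries 1 and 2 the median was 0.28, with 77 of 87 members above 0, and 0 members and 0 of all genes (0%) were called. Without SAP libraries 3 and 4 it was 1.79, and 72 of 87 members were called higher in JZL184, as were 7.92% of all genes. These calls too come from SAP libraries 1 and 2 alone, picked along the divide seen in the counts. Offsets for gene length gave a median of 0.60 with 81 of 87 members above 0, and again 0 members were called. At an unadjusted p below 0.05, 48 members were then higher and 1 lower, where 1941 and 1792 of 15308 genes were. Large subunit (49 members) and small subunit genes (38 members) had the same median of 0.83.

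Rpl17, which lies near the tunnel through which the new protein leaves the large subunit, had the largest log2 fold change between JZL184 and SAP among well-counted members (1.41, SE 0.44, adjusted p = 0.138 with edgeR and 0.0294 with DESeq2). Its FPKM was 1653, 1092, 1160 and 1715 in SAP libraries and 1716, 4935, 4508 and 2001 in JZL184 libraries. JZL184 libraries 2 and 3 stood far above all other libraries, and JZL184 library 1 was level with SAP library 4. In SAP libraries 1 and 2 Rpl17 was at 0.20 and -0.43 (log2) relative to control, where the family's median was -1.30 and -1.37.

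Rps28, a small subunit protein beside the exit of the mRNA, had a log2 fold change of 1.29 (SE 0.43, adjusted p = 0.1496 with edgeR). It was measured at 50.1, 33.4, 73.5 and 99.1 FPKM in SAP libraries, and at 122, 207, 126 and 111 FPKM in JZL184 libraries. The groups did not overlap, and JZL184 library 2 was the highest. Rpl5, which joins the large subunit together with Rpl11 and the 5S rRNA, gave 1.26 (SE 0.45, adjusted p = 0.169 with edgeR). Its FPKM of 1440, 1669, 2677 and 3842 in SAP overlapped that of 3333, 6299, 6663 and 4822 in JZL184. Rpl11 itself gave 0.66 (SE 0.36) in the same comparison.

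The smallest values in this comparison belonged to Rps27l, Rps4y2 and Rpl7l1. Rps27l encodes a variant of Rps27. It was the only member below 0, at -0.34 (SE 0.22, adjusted p = 0.366 with edgeR). Its FPKM was 16.84, 18.04 and 26.88 in control, 37.70, 37.91, 34.40 and 27.99 in SAP and 23.67, 25.63, 25.06 and 22.01 in JZL184. All SAP libraries lay above all control and JZL184 libraries in FPKM, while the normalized counts of SAP and JZL184 overlapped. Its common partner Rps27 gave 378, 350, 829 and 1256 FPKM in SAP and 1051, 1799, 1416 and 1376 FPKM in JZL184, a log2 fold change of 1.13 (SE 0.48).

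**Figure D4:**
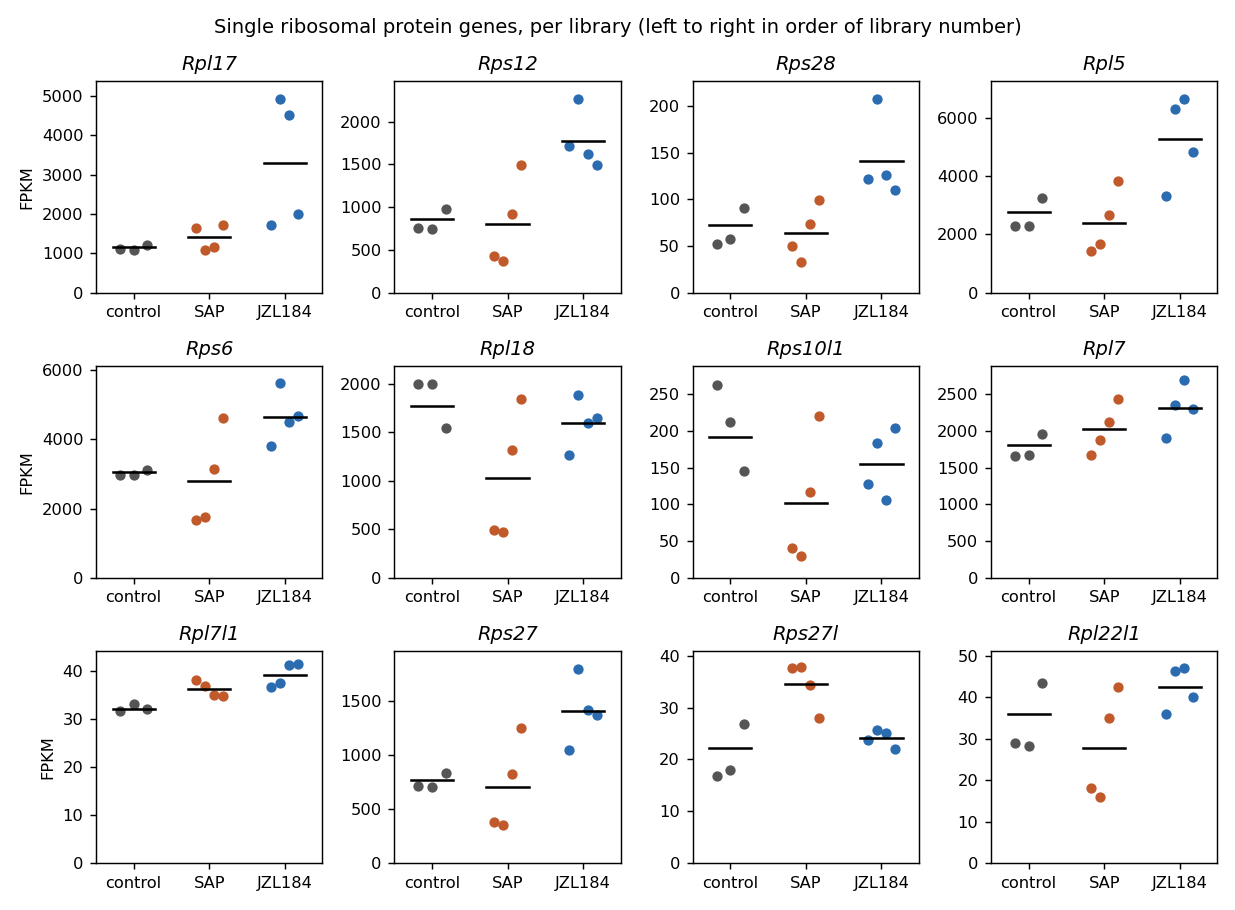
FPKM of 12 ribosomal protein genes in each library, with points from left to right by library number and a line at the mean over samples of each group, control libraries 1 and 2 being counted as 1 sample. Rps27l is highest in SAP at 27.99 to 37.91 FPKM, Rpl17 is highest in JZL184 libraries 2 and 3, and Rpl7l1 stays between 31.6 and 41.5 FPKM.

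Between JZL184 and control, the family was higher in JZL184 by a median of 0.49 on the log2 scale, again without a call. The log2 fold change was above 0 in 83 of 87 members and in 54% of all genes, whose median was 0.08. In this comparison 343 of 15916 genes (2.16%) were called with edgeR, and 0 of 87 members were. The smallest adjusted p among members was 0.117. At an unadjusted p below 0.05 there were 5 members higher and 0 lower, against 13.8% and 12.5% of all genes. All JZL184 libraries were above both control samples for 31 of 87 members, where 18.9% of all genes were separated upward, and below them for 0, where 19.5% were separated downward. DESeq2 called 1 member, Rpl17, and 10.8% of all genes. With all 3 control libraries as separate samples, edgeR called 3 of 86 members, Rpl17, Rps12 and Rps28, and 18.1% of all genes, and 4 members and 23% of all genes had an adjusted p below 0.05. DESeq2 with these 3 samples, an alternative chosen after seeing the data, called 3 members and 18.9% of all genes, with 11 members and 24.3% of all genes at an adjusted p below 0.05. With limma-voom 3 members and 21% of all genes had an adjusted p below 0.05. The shares of all genes called or at an adjusted p below 0.05 count both directions, while all members that passed were higher in JZL184. With DESeq2 and 3 control samples, 2421 of 18468 genes were higher at an adjusted p below 0.05, beside 11 of at most 91 members. The share among members is thus close to the general share in that direction. Gene length offsets gave a median of 0.62. The number of members higher at an unadjusted p below 0.05 depended on the fit. It was 40 of 87 with gene length offsets, where 2130 of 15916 genes were higher. With limma-voom it was 32 of 87 (2974 of 15916 genes). With 3 control samples in edgeR it was 33 of 86 (3315 of 15427 genes). DESeq2 with 2 control samples gave 5 of 91 (2390 of 23630 genes), and 0 members were lower in these fits.

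Among members with a mean of at least 100 reads, Rpl17 again had the largest log2 fold change (1.49, SE 0.54, adjusted p = 0.134 with edgeR), with 1108, 1094 and 1221 FPKM in control libraries. Rps12, a small subunit protein, followed with 1.03 (SE 0.34, adjusted p = 0.117 with edgeR). It had 755, 739 and 980 FPKM in control, 430, 373, 914 and 1492 FPKM in SAP and 1712, 2261, 1623 and 1492 FPKM in JZL184. Its lowest JZL184 library was above every control library. Rps28 came next with 0.97 (SE 0.40, adjusted p = 0.171 with edgeR) and 52.5, 57.5 and 90.4 FPKM in control. The smallest values were those of Rps10l1 (-0.33, SE 0.40), Rps4y2 (-0.21, SE 0.34) and Rpl18 (-0.18, SE 0.34). Both comparisons with control use the same control samples, and both with SAP the same SAP libraries, so their values are not independent.

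Some members have known roles outside the ribosome. Between JZL184 and SAP the log2 fold change was 1.03 (SE 0.50) for Rpl13a, which takes part in silencing mRNAs after interferon, and 1.002 (SE 0.48) for Rps27a, which encodes ubiquitin fused to a ribosomal protein. Rps4x, for which no such role is given here, is encoded on the X chromosome and gave 0.72 (SE 0.48). Rps3, which also acts in DNA repair, gave 0.53 (SE 0.41). Between JZL184 and control the same genes gave 0.41 (SE 0.35), 0.67 (SE 0.36), 0.21 (SE 0.34) and 0.05 (SE 0.33). None passed in either comparison.

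The paralogs with a name of their own were far lower than their partners. Rpl3l, the form of Rpl3 known from muscle, had 0.18 to 1.52 FPKM over all libraries where Rpl3 had 459 to 1366 FPKM. Rpl10l, known from testis, had 0.64 to 6.45 FPKM where Rpl10 had 112 to 323 FPKM. Rpl39l was at 0.20 and 0.25 FPKM in control libraries 1 and 2 and listed at 0 in the other 9, where Rpl39 had 122 to 239 FPKM. Rpl22l1 had 15.9 to 47.1 FPKM and followed the family, with 18.2, 15.9, 35.0 and 42.4 FPKM in SAP libraries. Its log2 fold changes were -0.49 (SE 0.50) between SAP and control and 0.73 (SE 0.39) between JZL184 and SAP. Rpl7l1, a large subunit assembly factor related to Rpl7, stayed between 31.6 and 41.5 FPKM, with log2 fold changes of -0.00 (SE 0.25), 0.28 (SE 0.20) and 0.25 (SE 0.25) in the order of the comparisons above. For Rpl3l they were -0.31 (SE 0.76), 1.12 (SE 0.58) and 0.79 (SE 0.49), and for Rpl10l 0.45 (SE 0.89), 0.29 (SE 0.63) and 0.71 (SE 0.47).

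Gene length moved with these values. Ribosomal protein genes without a copy suffix have a median length of 728 bases, against 3516 bases for all genes with enough reads. Other genes under 1000 bases (1139 genes) had a median log2 difference from control of -0.88 and -0.92 in SAP libraries 1 and 2, -0.12 and -0.02 in SAP libraries 3 and 4, and -0.40, 0.09, -0.22 and -0.24 in JZL184 libraries 1 to 4. Other genes over 4000 bases (6954 genes) had 0.47 and 0.48 in SAP libraries 1 and 2. Short genes as a whole were thus low in the same SAP libraries as the ribosomal protein genes. In each JZL184 library the median of the ribosomal protein genes was above that of the short genes. This also held in SAP library 4 (0.46 against -0.02) and narrowly in SAP library 3 (-0.10 against -0.12). In SAP libraries 1 and 2 it was below (-1.30 against -0.88 and -1.37 against -0.92). Between JZL184 and SAP, short genes that are no members had a median log2 fold change of 0.29 against 0.83 in the family, and between JZL184 and control -0.12 against 0.49. Between SAP and control they had -0.45 against -0.32. RNA integrity values were not used here, and the part of transcript length or RNA quality in the levels was not tested beyond the offsets given above.

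**Figure D5:**
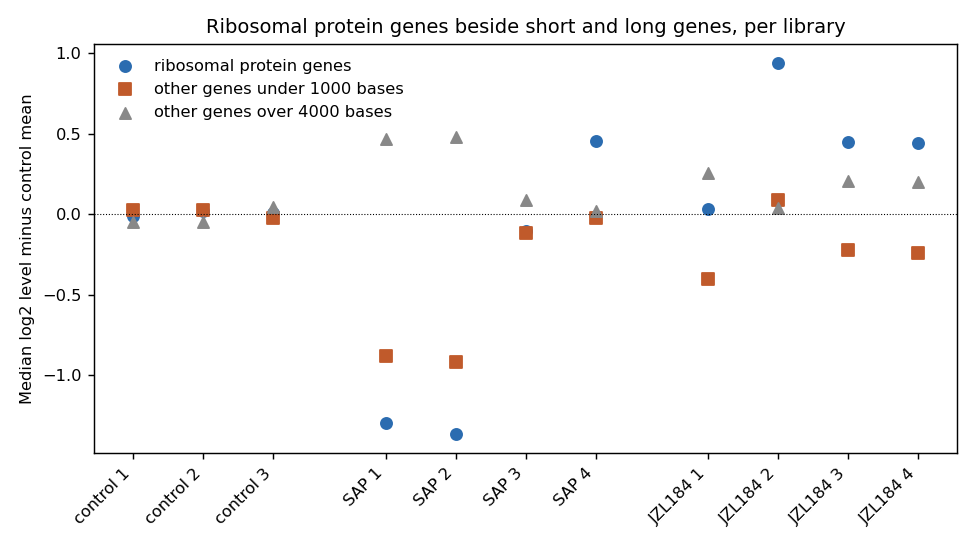
Median log2 level relative to the mean of the control samples, per library, for the 69 ribosomal protein genes without a copy suffix (circles), 1139 other genes under 1000 bases (squares) and 6954 other genes over 4000 bases (triangles). In SAP libraries 1 and 2 circles and squares are both low and triangles high. In the JZL184 libraries and SAP library 4 the circles lie above the squares, and in SAP library 3 they are close.

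Genes that build, use or regulate ribosomes were examined as lists. Between JZL184 and SAP, 40 biogenesis factors, which assemble the subunits in the nucleolus, had a median log2 fold change of 0.27, with 8 higher and 1 lower at an unadjusted p below 0.05, where 10.3% and 11.1% of all genes were. The 27 translation factors tested had a median of 0.38 with 1 higher and 0 lower, and the 23 regulators, among them Mtor, Larp1 and Myc, had -0.00 with 3 higher and 0 lower. The 73 mitochondrial ribosomal protein genes had 0.17. None of these genes was called with edgeR. Between JZL184 and control the medians were 0.14 for biogenesis factors, 0.17 for translation factors, 0.26 for regulators and -0.42 for the mitochondrial ribosomal proteins, again with 0 called. Between SAP and control they were -0.01, -0.22, 0.12 and -0.52, with 0 called. Nuclear oxidative phosphorylation genes had medians of -0.68 between SAP and control (73 genes), 0.29 between JZL184 and SAP (72 genes) and -0.39 between JZL184 and control (73 genes), where 1 was called lower with edgeR. With gene length offsets the mitochondrial ribosomal proteins had -0.17 between SAP and control, -0.08 between JZL184 and SAP and -0.25 between JZL184 and control. The oxidative phosphorylation genes had -0.25, -0.01 and -0.26 in the same order. Between JZL184 and SAP the offsets gave 0.26 for biogenesis factors, 0.32 for translation factors and 0.04 for regulators. Comparisons between these lists and the ribosomal proteins were not tested.

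Fold changes were also set beside the start sequences. Among genes without a copy suffix, the median log2 fold change between JZL184 and SAP was 0.85 in 35 genes with a C and 4 pyrimidines near the start and 0.79 in 18 genes without. Between JZL184 and control it was 0.49 and 0.45, and between SAP and control -0.32 and -0.38. The ranges overlapped in each comparison, and the difference was not tested.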

How the data were processed

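Total RNA from rat ileum was sequenced as stranded mRNA libraries, 1 library per sample. Reads were trimmed with the FASTX-Toolkit (0.0.13), reads shorter than 16 nt were discarded, and the rest were aligned with HISAT2 to the mRatBN7.2 build with at most 4 mismatches. Which tool and annotation were used for counting is not stated in the labels or methods. The authors deposited raw counts of uniquely aligned reads per gene, and a second table with FPKM values that the authors computed from them. The unique alignment removes reads shared between a gene and its copies, so levels of different members are uncertain.

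Counts were analysed with edgeR (4.0.16, quasi-likelihood test, TMM normalization, filterByExpr with a minimum count of 10) in R 4.3.3, separately for each of 3 comparisons. P-values were adjusted over all genes tested with the Benjamini-Hochberg method. Control libraries 1 and 2 were summed, which left 10 samples. The total of reads on genes was 26341299 to 33847135 per library. FPKM values were used for levels only. Alternatives used DESeq2 (1.42.0), limma-voom (3.58.1), other normalizations and filters, gene length offsets (loess, span 0.3), a block on the replicate number and leaving out libraries. The fits were tested on simulated data. Summaries and figures were made with Python 3.11.15, numpy 2.4.6, pandas 2.3.3 and matplotlib 3.10.9.

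Members and lists were chosen with earlier results of these data known. The genes named in a comparison were the 3 largest and 3 smallest log2 fold changes among members that passed the filter with a mean of at least 100 reads. The 5 members with the highest FPKM, the paralogs with their partners, and Rps6, Rpl5, Rpl11, Rps27a, Rpl13a, Rps3 and Rps4x were also named by rule. Some items that fall under these rules are not reported here. Start windows were taken from RefSeq (GRCr8), and no coordinates were converted to the build of the counts.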

Additional observations from a re-analysis of the deposited data

Results flagged for a closer look

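Among 58 groups of 4 libraries examined, 3 had 1 library far from the other libraries of its group, and in all 3 it was JZL184 library 2. Chance gives about 1 such group in 20. Rpl39 was at 239 FPKM there, and at 196, 197 and 202 FPKM in the other JZL184 libraries. Rps28 was at 207 FPKM, against 111, 122 and 126 FPKM. Rps4y2 was at 22.8 FPKM, against 14.04, 14.48 and 14.60 FPKM. JZL184 library 2 also had the largest share of reads on the family, 12.6%.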

How the results depend on the processing

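Counts of calls were compared with the reported ones at 1.5 times, and medians and shares by the spread between samples. By these limits 21 values under an alternative moved and 181 did not. Since the SAP samples spread widely, the latter include medians between SAP and control of 0.22 without SAP libraries 1 and 2 and 0.05 with length offsets, both of the other sign than the reported -0.32. Without SAP libraries 3 and 4, SAP against control gave 61 members called, 70 at an adjusted p below 0.05 and a median of -1.30, and JZL184 against SAP gave 72, 72 and 1.79. This split was made after the divide between the SAP libraries was seen. DESeq2 called 2 members between JZL184 and SAP and 1 between JZL184 and control, with the same numbers at an adjusted p below 0.05. Between JZL184 and control, limma-voom gave 3 members at an adjusted p below 0.05, a level that 21% of all genes reached in either direction. With 3 control samples edgeR called 3 members there, with 4 at an adjusted p below 0.05, which 23% of all genes reached in either direction. DESeq2, chosen for this after seeing the data, called 3 with 11 at an adjusted p below 0.05, which 24.3% of all genes reached in either direction. The share of summed FPKM was 13.7% in control, 12.9% in SAP and 20.1% in JZL184. The control share was 8.09% without the 20 largest other genes in the denominator and 6.16% without the 3 members with the most reads. The cause of these differences was not tested. Leaving out 1 sample at a time called 0 members in every comparison, while of all genes 0% to 0.0189% were called between SAP and control, 0% to 4.21% between JZL184 and SAP and 0% to 12% between JZL184 and control, the last 2 upper values without JZL184 library 1. The members' medians ran from -0.77 to -0.12 between SAP and control, from 0.62 to 1.27 between JZL184 and SAP and from 0.31 to 0.63 between JZL184 and control.

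Same-numbered samples did not deviate together, with correlations of deviations from -0.505 to 0.149, so these values show no pairing. Deviations within groups of 2 to 4 samples cannot tell whether such rats shared a litter, day or batch. With the replicate number as a block, 0 members were called and the medians were -0.67 between SAP and control, 0.99 between JZL184 and SAP and 0.22 between JZL184 and control. With the block and gene length offsets the medians were -0.08, 0.63 and 0.54 in the same order. After summing, control samples carried only the numbers 1 and 3. In both comparisons with control, the blocked fits therefore drew the group difference from samples with these numbers alone. Their medians and the 0 calls there do not stand for all SAP or JZL184 samples.

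Of the log2 fold changes of named genes, 24 values had the other sign under an alternative, 16 were classed as stronger and 516 kept their sign and call. Between SAP and control, Rpl17 was at -0.046 without SAP libraries 3 and 4 and from -0.056 to 0.26 with 1 sample left out. Rpl3l was at 0.39 and Rpl22l1 at 0.057 without SAP libraries 1 and 2, and with 1 sample left out Rpl3l ranged from -0.89 to 0.19 and Rpl10l from -0.016 to 1.12. Rpl7l1 was at 0.012 with 10 reads in every library, 0.092 with length offsets, 0.085 with these and the block and 0.050 without SAP libraries 1 and 2, and from -0.079 to 0.074 with 1 sample left out. Between JZL184 and SAP, Rps4y2 was at -0.095 with length offsets and -0.099 with these and the block, at -0.035 without SAP libraries 1 and 2, and from -0.034 to 0.40 with 1 sample left out. Rpl10l was at -0.075 with length offsets and from -0.052 to 0.71 with 1 sample left out. Between JZL184 and control, the ranges with 1 sample left out were -0.69 to 0.14 for Rps10l1, -0.41 to 0.081 for Rpl18, -0.0085 to 0.47 for Rpl22l1 and -0.14 to 0.36 for Rps27l. Control has 2 samples, and counting error limits copies with few reads, such as Rps12l3 with 7 to 35 reads per library.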
